A study of Drosophila melanogaster with 18 samples.

Results

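The 10 genes described here mark plasmatocytes, the macrophage-like blood cells of Drosophila, or encode scavenger and phagocytic receptors of these cells. They were listed by name (Hml, eater, NimC1, Sr-CI, Sr-CII, crq, drpr, Nplp2, He and srp), and all 10 were found by symbol among the 17609 genes of the count tables. In flies, plasmatocytes circulate in the hemolymph, engulf dead cells and bacteria, and secrete much of the basement membrane. The GATA factor Serpent, encoded by srp, is needed for the blood cell fate. Receptors with EGF-like repeats (Eater, NimC1, Draper), class C scavenger receptors and the CD36 relative Croquemort bind the targets of phagocytosis.

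The libraries are polyA RNA from S2 cells, an embryonic Drosophila line with macrophage-like traits. Wild type cells (S2-WT) were left without CuSO4 or received 40, 100 or 1000 µM, and 3 lines carry a transcription factor that copper induces: Zelda (S2-Zld), Grainy head (S2-Grh) and Twist (S2-Twi). The S2-Zld and S2-Grh lines were sampled without copper and after induction, S2-Twi after induction at 40 µM only, and each of the 9 groups has 2 libraries, with harvest 48 h after copper was added. The induced doses are printed as 1000 mM for S2-Zld and 100 mM for S2-Grh but in µM for wild type. They are compared with the wild type groups of the same number, and the unit is unresolved. The labels do not name the promoter that drives the factors, nor say whether a line is 1 clone or whether replicates are separate cultures, so p-values measure the spread between these samples only.

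Libraries held 10459648 to 28575923 counts, and 3 counts correspond to 0.105 to 0.287 CPM (counts divided by the library total and multiplied by 1000000). Each induced line carried its own factor: the mean level was 5357 CPM of zld, 999 CPM of grh and 1776 CPM of twi, against at most 12.3, 1.06 and 2.34 CPM in groups without that construct. The uninduced lines already had 260.3 CPM of zld and 40.4 CPM of grh. Replicates of wild type at 40 µM stood furthest apart, with a chi-square per degree of freedom of 37.7 over genes with at least 10 counts in the pair, against 2.01 to 18.6 in the other groups. MtnA, the main copper-responsive metallothionein, was at 89.3 CPM in untreated wild type, 836 at 40 µM, 834 at 100 µM and 7869 at 1000 µM, and at 4575 in induced S2-Zld, 2025 in induced S2-Grh and 552 in induced S2-Twi. By this gene, wild type at 40 and 100 µM differed by less than the spread between replicates. Induced S2-Grh stood above its wild type control, while induced S2-Zld and S2-Twi stood below theirs. The part of unequal copper response in the comparisons of induced lines with wild type was not tested. In bulk libraries such as these, fewer cells of a type and less RNA per cell cannot be told apart.

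Untreated wild type cells expressed most of the plasmatocyte genes. Per length, in CPM per kb of exon, Nplp2 led with 2914 ± 118 (SD, n = 2), rank 34 of all 17609 genes. Next came srp (81.8 ± 4.44), crq (69.9 ± 1.62), drpr (60.4 ± 0.494), Sr-CI (24.5 ± 1.95), Hml (14.5 ± 1.66), eater (13.0 ± 1.17) and He (5.25 ± 1.32). NimC1 (0.271 ± 0.0343) and Sr-CII (0.126 ± 0.144) were close to absent on that scale; protein was not measured. Of other blood cells, the lamellocyte antigen gene atilla and the crystal cell regulator lz had no counts in untreated wild type, while the 5 lamellocyte markers together, which include widely expressed genes such as cher and msn, summed to 1565 to 1575 CPM.

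The levels below are CPM, not corrected for length, with replicate 1 before replicate 2. The regulator srp (chromosome 3R, 15986152 to 16004085 on dm6) varied least. Its levels were 459 and 495 CPM in untreated wild type, 486 and 385 at 40 µM, 378 and 406 at 100 µM, and 413 and 387 at 1000 µM. In the lines they were 476 and 511 CPM in uninduced S2-Zld, 319.7 and 324 in induced S2-Zld, 426 and 399 in uninduced S2-Grh, 365 and 345 in induced S2-Grh, and 371 and 336 in induced S2-Twi. The highest group mean was 1.53 times the lowest. Induced S2-Zld lay below all other groups without overlap, while most of the groups above it overlapped their neighbours. Of the exonic bases of srp, 16.1% are shared with an lncRNA gene (lncRNA:CR44133), and reads there cannot be assigned without strand.

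The 3 genes that mark the blood cell surface or its secretions spanned much wider ranges. Hml (3L, 13846054 to 13860001) encodes hemolectin, a clotting protein secreted by plasmatocytes. It had 156 and 184 CPM in untreated wild type, 12.9 and 11.8 at 40 µM, 80.2 and 74.3 at 100 µM, and 278 and 260.2 at 1000 µM. In uninduced and induced S2-Zld it had 134 and 129.8 against 66.0 and 76.9 CPM, in S2-Grh 35.0 and 38.9 against 19.1 and 22.3, and in induced S2-Twi 2.03 and 1.42. The ratio of the highest to the lowest group mean was 156, and all neighbours in the order of the 9 groups were separate except wild type at 100 µM and induced S2-Zld. Nplp2 (3L, 13356376 to 13357223), named as a neuropeptide-like precursor and abundant in blood cells, had 1829 and 1727 CPM in untreated wild type, 401 and 198 at 40 µM, 438 and 404 at 100 µM, and 876 and 984 at 1000 µM. It had 1344 and 959 CPM in uninduced and 120.0 and 173 in induced S2-Zld, 1287 and 1098 in uninduced and 1211 and 1569 in induced S2-Grh, and 118 and 78.9 in induced S2-Twi. Nplp2 was therefore lowest in induced S2-Zld and S2-Twi, whereas in S2-Grh the induced and uninduced libraries overlapped. He (2L, 13972096 to 13972947) encodes hemese, a transmembrane protein found on all blood cell types, and rests on 6 to 108 counts a library. It had 4.16 and 2.90 CPM in untreated wild type, 0.805 and 1.09 at 40 µM, 0.388 and 0.504 at 100 µM, and 5.46 and 6.50 at 1000 µM. It had 2.01 and 1.13 CPM in uninduced and 0.741 and 1.40 in induced S2-Zld, 2.37 and 1.71 in uninduced and 0.791 and 1.51 in induced S2-Grh, and 0.520 and 0.560 in induced S2-Twi. He thus peaked in wild type at 1000 µM, the 4 groups of the S2-Zld and S2-Grh lines overlapped from one to the next, and 11.6% of its exonic bases lie in NimB5 as well.

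Among receptors for microbes, Sr-CI and eater moved widely and NimC1 stayed low. Sr-CI (2L, 4121702 to 4124153), a class C scavenger receptor that binds bacteria, had 57.0 and 50.9 CPM in untreated wild type, 1.15 and 1.63 at 40 µM, 2.33 and 2.38 at 100 µM, and 39.3 and 43.7 at 1000 µM. It had 42.7 and 34.6 CPM in uninduced and 5.68 and 6.84 in induced S2-Zld, 20.7 and 15.4 in uninduced and 6.13 and 9.14 in induced S2-Grh, and 0.416 and 0.215 in induced S2-Twi. The ratio of its highest to its lowest group mean, 171, was the widest of the 9 members that were tested. The Twi level rests on 8 and 5 counts. Eater (3R, 27095867 to 27099679) encodes a phagocytic receptor for bacteria. It had 45.5 and 40.1 CPM in untreated wild type, 45.7 and 31.0 at 40 µM, 18.6 and 16.9 at 100 µM, and 39.4 and 40.8 at 1000 µM. It had 35.3 and 26.8 CPM in uninduced and 12.0 and 12.3 in induced S2-Zld, 15.1 and 15.2 in uninduced and 5.88 and 6.88 in induced S2-Grh, and 15.0 and 16.2 in induced S2-Twi. Its lowest group was induced S2-Grh, clear of all others, and its 4 highest groups (untreated wild type, 1000 µM, 40 µM and uninduced S2-Zld) each overlapped the next. NimC1 (2L, 13973158 to 13976769), the phagocytic receptor known as the P1 antigen, ranged from 0.346 to 2.82 CPM on 7 to 57 counts. Its highest group mean was that of wild type at 1000 µM and its lowest, 0.414 CPM, that of induced S2-Grh, and each group overlapped the next in the order. Sr-CII (2R, 12208893 to 12212155), a relative of Sr-CI, had 0 to 11 counts a library and passed no filter, so it was tested in no comparison.

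The receptors for dying cells were abundant in all 9 groups, with ratios of the highest to the lowest group mean of 1.92 for crq and 2.25 for drpr. Croquemort, the product of crq (2L, 448254 to 453024), is a CD36 family receptor for apoptotic cells. Levels of crq were 202 and 196 CPM in untreated wild type, 334 and 329.6 at 40 µM, 257 and 248 at 100 µM, and 220.1 and 215 at 1000 µM. They were 242 and 219 CPM in uninduced and 219 and 211 in induced S2-Zld, 182 and 181 in uninduced and 164 and 182 in induced S2-Grh, and 300.3 and 317 in induced S2-Twi. Wild type and S2-Twi cells at 40 µM were thus the highest of the 9 groups, and 15.7% of the exonic bases of crq are shared with the gene ex. Draper, the product of drpr (3L, 1715595 to 1731107), is the engulfment receptor related to CED-1 of worms. Levels of drpr were 289 and 286 CPM in untreated wild type, 163 and 154 at 40 µM, 137 and 130.1 at 100 µM, and 227 and 226 at 1000 µM. They were 216 and 202 CPM in uninduced and 172 and 175 in induced S2-Zld, 212 and 187 in uninduced and 235 and 217 in induced S2-Grh, and 326 and 276 in induced S2-Twi. Unlike crq, drpr was lowest in wild type at 100 and 40 µM; 2.42% of its exonic bases are shared with Oseg4.

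**Figure D1:**
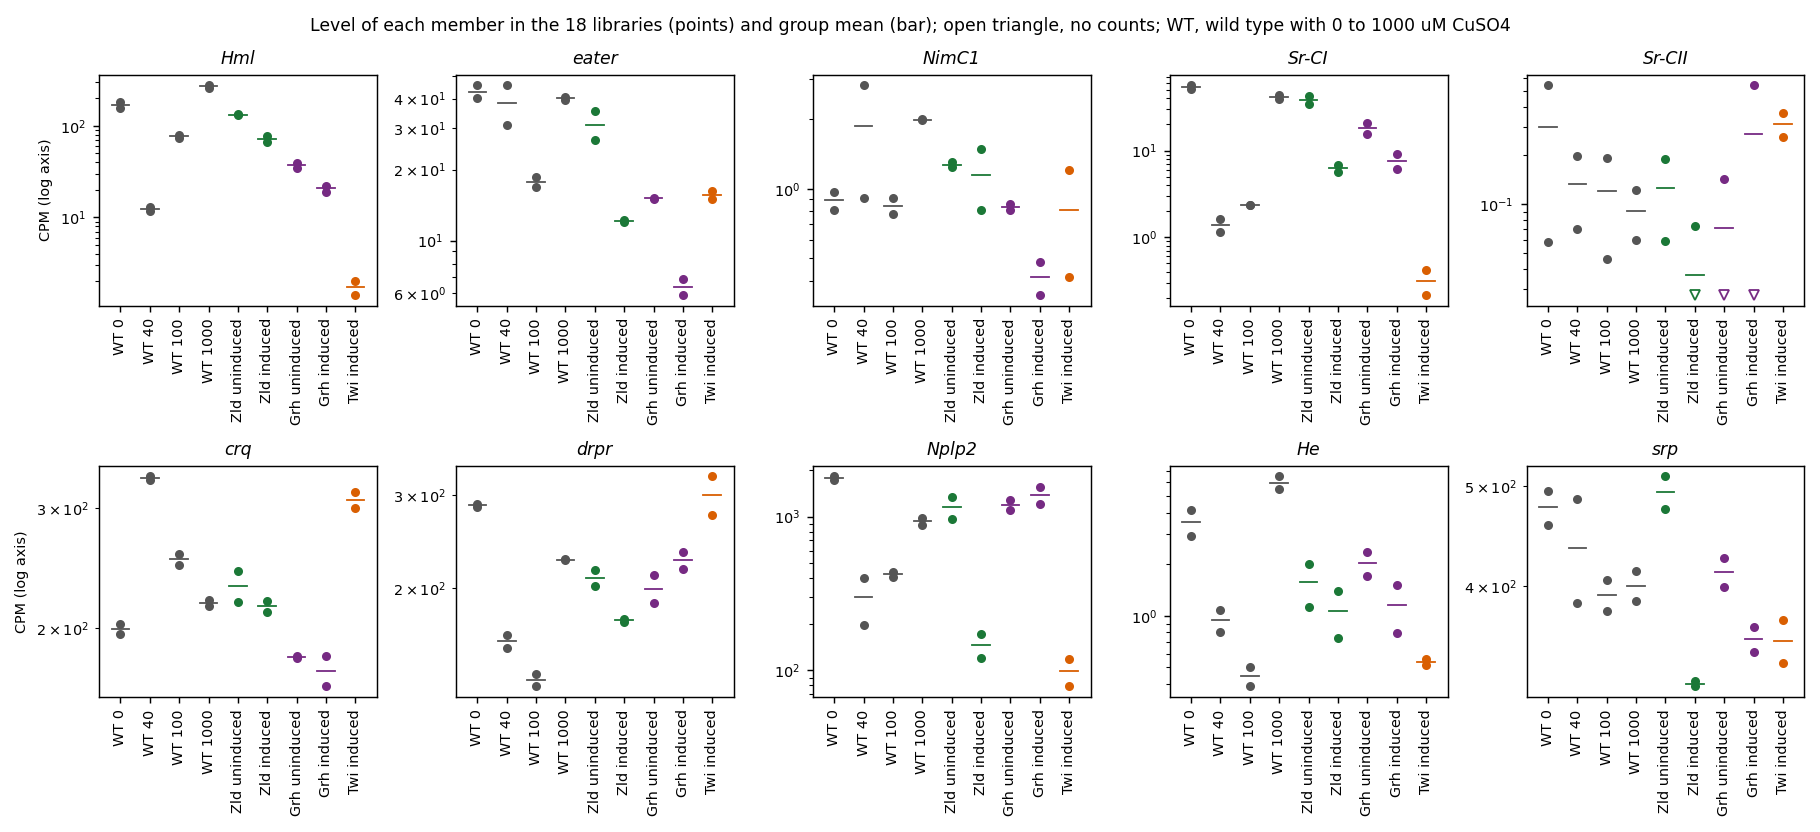
Levels in CPM (log axis, one scale per panel) of each of the 10 members in the 18 libraries, as points, with the group mean as a bar and libraries without counts as open triangles. Hml, Sr-CI, Nplp2 and He lie lower in wild type at 40 and 100 µM than at 0 and 1000 µM, and Hml and Sr-CI are lowest in induced S2-Twi (means 1.72 and 0.316 CPM).

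In wild type cells these genes differed between copper doses, and not in the order of the dose. Each dose is 1 group of 2 libraries, so dose and group cannot be told apart. At 40 µM, 5 of the 9 tested members fell against untreated wild type and 1 rose, where 19.7% of all tested genes fell and 20.8% rose (edgeR quasi-likelihood test, adjusted p under 0.05). Sr-CI fell by 5.25 ± 0.19 on the log2 scale (SE; adjusted p = 1.18e-05), Hml by 3.73 ± 0.14 (1.23e-05), Nplp2 by 2.52 ± 0.35 (0.00221), He by 1.86 ± 0.33 (0.00519) and drpr by 0.81 ± 0.10 (0.00135). The receptor gene crq rose by 0.79 ± 0.07 (0.000319). The log2 change of eater was -0.10 ± 0.17, that of srp -0.08 ± 0.13 and that of NimC1 1.07 ± 0.66, none of them called. The call of He ended without replicate 1 of untreated wild type (log2 change -1.60, adjusted p = 0.0536).

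At 100 µM, 7 of 9 tested members fell and 1 rose, where 27.0% of all tested genes fell and 25.4% rose. Sr-CI fell by 4.54 ± 0.19 (adjusted p = 5.02e-09), He by 2.97 ± 0.37 (3.87e-06), Nplp2 by 2.11 ± 0.12 (3.00e-07), eater by 1.30 ± 0.08 (1.33e-09), Hml by 1.17 ± 0.08 (1.15e-07), drpr by 1.13 ± 0.06 (1.60e-09) and srp by 0.31 ± 0.06 (0.000632). Here crq rose by 0.31 ± 0.05 (3.11e-05), and the log2 change of NimC1 was -0.09 ± 0.36. No library, left out alone, ended any of these 8 calls.

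At 1000 µM Hml was higher than without copper, and drpr was lower. Of 9 tested members 4 fell and 3 rose, where 13.9% of all tested genes fell and 15.3% rose. Hml rose by 0.68 ± 0.09 (adjusted p = 0.000171) and drpr fell by 0.33 ± 0.05 (0.000492), and both calls held without any 1 of the 4 libraries. The other 5 calls ended without at least 1 library: NimC1 (1.17 ± 0.34, adjusted p = 0.0235), He (0.77 ± 0.26, 0.0402), Nplp2 (-0.92 ± 0.19, 0.0122), Sr-CI (-0.36 ± 0.10, 0.0141) and srp (-0.24 ± 0.07, 0.0217). The calls of NimC1 and He ended without any 1 of the 4, that of Sr-CI without replicate 1 of either group, that of Nplp2 without either library at 1000 µM, and that of srp without either of these or replicate 2 of untreated wild type. The count of called members was 2 to 4 in these fits.

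A direct test between doses, added after the data were seen and fitted on all 18 libraries, gave higher levels at 1000 than at 40 µM for 5 of 9 tested members and lower for 1, where 24.0% of all tested genes were called higher and 25.7% lower. Sr-CI was 4.88 ± 0.21 higher on the log2 scale (adjusted p = 3.12e-11), Hml 4.39 ± 0.11 (6.83e-14), He 2.62 ± 0.34 (7.36e-06), Nplp2 1.58 ± 0.32 (0.00205) and drpr 0.47 ± 0.08 (0.000225), and crq was lower (-0.66 ± 0.06, 9.97e-08). Against 100 µM, 6 of 9 were higher at 1000 µM and 1 lower, where 18.7% of all genes were called higher and 22.9% lower: Sr-CI by 4.14 ± 0.20, He by 3.70 ± 0.39, Hml by 1.81 ± 0.10, eater by 1.18 ± 0.15, Nplp2 by 1.15 ± 0.32 and drpr by 0.77 ± 0.09, with crq at -0.21 ± 0.06. The calls of Nplp2 and crq in that test ended without single libraries (adjusted p = 0.0836 and 0.0752 at most). The 3 doses stand in separate tables that share the untreated libraries, and whether the doses were handled together is not given in the sources used here.

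Before induction, both lines already differed from untreated wild type, and they share these control libraries. In uninduced S2-Grh 5 of 9 tested members were lower and none higher, where 12.0% of all tested genes were called lower and 11.7% higher (23.4% and 6.12% by library size alone). The log2 change was -2.09 ± 0.09 for Hml (adjusted p = 2.58e-09), -1.50 ± 0.13 for Sr-CI (9.19e-06), -1.40 ± 0.09 for eater (1.86e-09), -0.47 ± 0.11 for Nplp2 (0.012) and -0.43 ± 0.06 for drpr (0.000129). The call of Nplp2 ended without replicate 1 of untreated wild type or replicate 2 of the line (adjusted p = 0.0504 and 0.0702). In uninduced S2-Zld 5 were lower and 1 higher, where 10.2% of all genes were called lower and 10.4% higher (20.6% and 6.33% by library size alone). Here He stood at -1.16 ± 0.33, Sr-CI at -0.41 ± 0.10, eater at -0.39 ± 0.10, drpr at -0.37 ± 0.05, Hml at -0.28 ± 0.09 and crq at 0.30 ± 0.06. Only the calls of drpr (adjusted p = 0.000343) and crq (0.00327) held without each single library, and 3 members in all were called without replicate 1 of untreated wild type or without replicate 2 of the line.

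**Figure D2:**
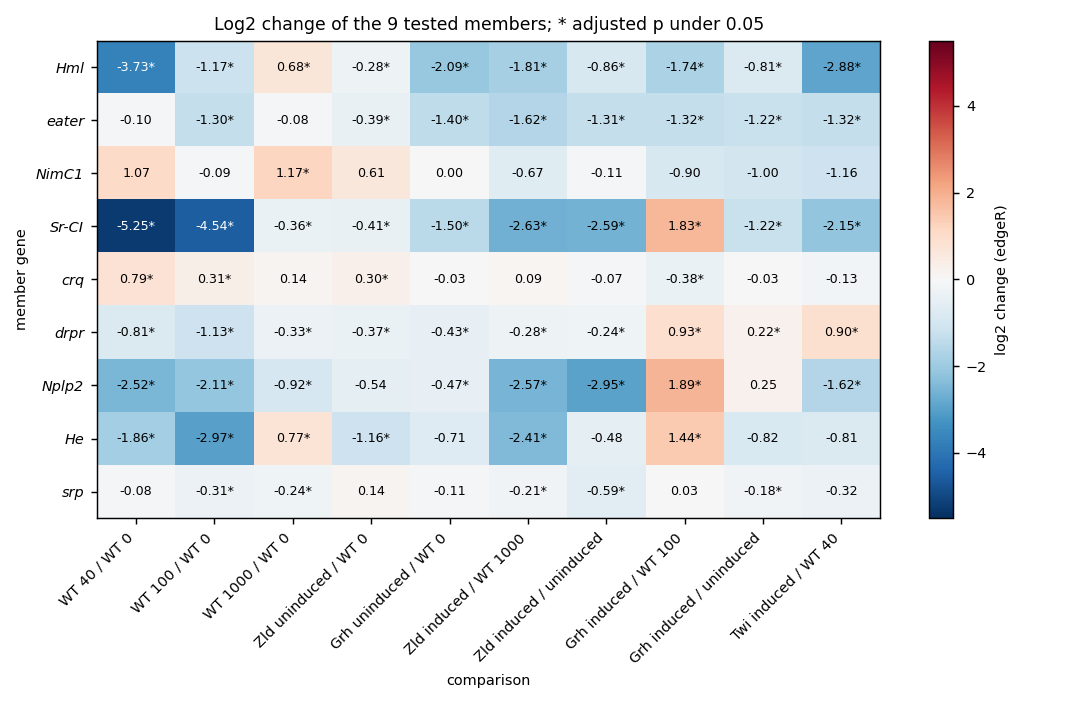
Log2 change from edgeR (colour and number) of the 9 tested members, in rows, for 10 comparisons between groups, in columns; an asterisk marks an adjusted p under 0.05, and WT 0 to WT 1000 are wild type cells at that CuSO4 dose in µM. Sr-CI is at -5.25 and -4.54 in wild type at 40 and 100 µM against untreated wild type, and eater is negative in all 5 comparisons of induced cells.

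Hml, eater, Sr-CI and Nplp2 were lower in induced S2-Zld than in both of its controls, also without any single library. Against wild type at 1000 µM, 7 of 9 tested members fell and none rose, where 17.3% of all tested genes fell and 19.1% rose (26.1% and 14.1% when scaled by library size alone). The median log2 change was -1.62 over these members and 0.02 over all genes. Sr-CI fell by 2.63 ± 0.13 (adjusted p = 2.89e-07), Nplp2 by 2.57 ± 0.19 (2.11e-05), He by 2.41 ± 0.32 (0.000307), Hml by 1.81 ± 0.08 (7.26e-08) and eater by 1.62 ± 0.12 (5.73e-06). For these 5 genes no library, left out alone, ended a call. The 2 induced libraries lay below both wild type libraries in these genes, but also in drpr, srp and the uncalled NimC1, so this does not set the 5 genes apart. How many of all genes separate in this way was not counted. The falls of drpr (0.28 ± 0.06, adjusted p = 0.00339) and srp (0.21 ± 0.07, 0.0338) were small. That of drpr ended without replicate 1 of wild type (adjusted p = 0.0558), and that of srp without any 1 of the 4 libraries (0.082 to 0.278) and with the replicate number as a block (0.0631). The log2 change of crq was 0.09 ± 0.06 and that of NimC1 -0.67 ± 0.34, neither called.

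Against its own uninduced line, where copper changed too, 6 of 9 members fell and none rose, where 20.1% of all tested genes fell and 23.0% rose. Nplp2 fell by 2.95 ± 0.19 (adjusted p = 6.84e-06), rank 6 from the lowest of all 8780 genes tested. Sr-CI fell by 2.59 ± 0.14 (adjusted p = 3.30e-07), eater by 1.31 ± 0.13 (2.04e-05), Hml by 0.86 ± 0.08 (1.26e-05), srp by 0.59 ± 0.07 (7.78e-05) and drpr by 0.24 ± 0.06 (0.00666). The log2 change of He was -0.48 ± 0.41, and the uninduced line already stood below wild type in this gene; those of NimC1 and crq were -0.11 ± 0.38 and -0.07 ± 0.06. Both comparisons use the same induced libraries. The interaction, that is the change on induction of S2-Zld minus the change with 1000 µM in wild type, was negative for 5 of 9 tested members, where it was called negative for 6.54% of all tested genes and positive for 5.96%. It was -2.23 ± 0.17 for Sr-CI, -2.03 ± 0.27 for Nplp2, -1.54 ± 0.13 for Hml, -1.22 ± 0.16 for eater and -0.35 ± 0.10 for srp. That of srp ended without any 1 of 5 libraries: either induced S2-Zld library, either wild type library at 1000 µM, or replicate 1 of untreated wild type (adjusted p between 0.0645 and 0.172).

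In induced S2-Grh, Hml and eater were lower than in each of 3 controls, whereas the direction of Sr-CI, He and drpr turned with the control. Nplp2 was called only against wild type at 100 µM, where it was higher. Against wild type at 100 µM, 3 of 9 tested members fell and 4 rose, where 27.2% of all tested genes fell and 33.6% rose (40.2% and 21.4% when scaled by library size alone, which moved the median log2 change of all genes from 0.05 to -0.12). Hml fell by 1.74 ± 0.08 (adjusted p = 2.58e-11), eater by 1.32 ± 0.11 (6.58e-08) and crq by 0.38 ± 0.05 (9.49e-06). Nplp2 rose by 1.89 ± 0.12 (4.27e-07), Sr-CI by 1.83 ± 0.25 (4.88e-05), He by 1.44 ± 0.45 (0.0114) and drpr by 0.93 ± 0.07 (6.46e-08). The call of He ended without replicate 1 of wild type (1.29, adjusted p = 0.0629), without replicate 2 of induced S2-Grh (0.98, 0.129) and in DESeq2 (0.0511). The log2 changes of NimC1 and srp were -0.90 ± 0.44 and 0.03 ± 0.06, not called.

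Those 4 increases stand against a wild type group in which Sr-CI, Nplp2, He and drpr were lower than in untreated wild type. Against untreated wild type, a control added after the data were seen, the log2 change in induced S2-Grh was -2.73 ± 0.16 for Sr-CI (adjusted p = 6.94e-08), -1.54 ± 0.32 for He (0.000906) and -0.21 ± 0.06 for drpr (0.0132), while Nplp2 stood at -0.23 ± 0.11 (0.139) and crq at -0.07 ± 0.05 (0.248), neither called. Hml and eater stood at -2.92 ± 0.10 and -2.63 ± 0.10. Against the uninduced line 4 of 9 members fell and 1 rose, where 10.6% of all tested genes fell and 16.7% rose (14.5% and 14.8% by library size alone). Eater fell by 1.22 ± 0.12 (adjusted p = 5.11e-07), Sr-CI by 1.22 ± 0.18 (0.000211), Hml by 0.81 ± 0.08 (1.36e-06) and srp by 0.18 ± 0.06 (0.0421), and drpr rose by 0.22 ± 0.07 (0.0285). The calls of srp and drpr each ended without either of 2 single libraries (adjusted p between 0.133 and 0.304). The log2 changes of Nplp2 (0.25 ± 0.11), He (-0.82 ± 0.35) and crq (-0.03 ± 0.05) were not called, nor was NimC1 (adjusted p = 0.11). The interaction of line and copper was positive for 4 of 9 tested members and negative for 1, where it was called positive for 24.1% and negative for 19.2% of all tested genes: 3.31 ± 0.30 for Sr-CI, 2.35 ± 0.16 for Nplp2, 2.14 ± 0.53 for He, 1.35 ± 0.09 for drpr and -0.35 ± 0.07 for crq. For Hml (0.35 ± 0.14, adjusted p = 0.0604) and eater (0.08 ± 0.15, 0.72) the interaction was not called. Both genes were also lower in wild type at 100 µM and in uninduced S2-Grh than in untreated wild type. The interaction term contains the falls of wild type at 100 µM. MtnA in the control was at 834 CPM against 2025 in induced S2-Grh, and the part of unequal copper response in these differences was not tested.

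**Figure D3:**
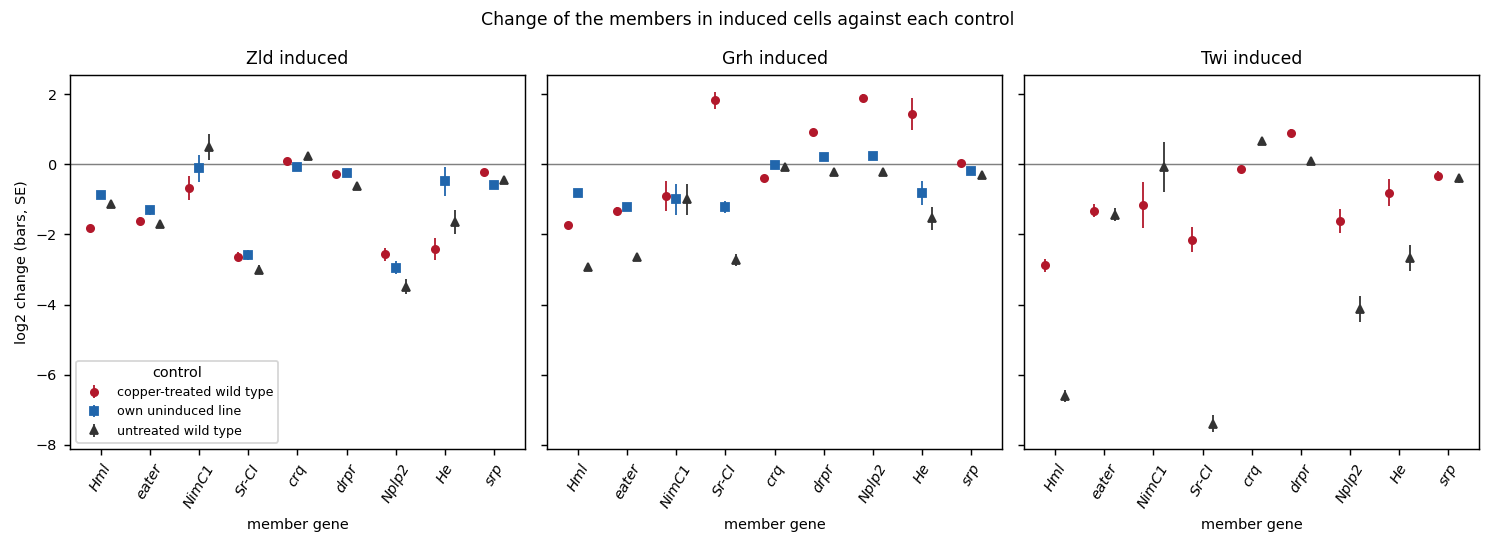
Log2 change (points, with SE) of the 9 tested members in induced S2-Zld, S2-Grh and S2-Twi cells against copper-treated wild type (circles), the line's own uninduced cells (squares; no such group for S2-Twi) and untreated wild type (triangles). In S2-Grh, Sr-CI is at 1.83 against copper-treated and -2.73 against untreated wild type, while Hml and eater are below 0 against each control in all 3 lines.

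In S2-Twi cells, whose control is wild type at 40 µM, 4 of 9 tested members fell and 1 rose, where 4.27% of all tested genes fell and 6.25% rose. Hml fell by 2.88 ± 0.19 (adjusted p = 0.000204), from an already lowered control, and eater by 1.32 ± 0.18 (0.00469). Sr-CI fell by 2.15 ± 0.35 (0.00898) and Nplp2 by 1.62 ± 0.34 (0.028), and drpr rose by 0.90 ± 0.10 (0.00191). The libraries of the compared groups did not overlap in these 5 genes, nor in He, srp and crq, which were not called. Such separation therefore does not set the 5 genes apart, and the share of all genes without overlap was not counted. The call of Sr-CI ended without replicate 2 of S2-Twi (-1.72, adjusted p = 0.0688). That of Nplp2 ended without either S2-Twi library (0.0631 and 0.166), and its change was -1.04 without replicate 1 of wild type at 40 µM. The log2 changes of He (-0.81 ± 0.39), NimC1 (-1.16 ± 0.65), srp (-0.32 ± 0.13) and crq (-0.13 ± 0.07) were not called. Against untreated wild type the changes were -7.40 ± 0.24 for Sr-CI, -6.61 ± 0.18 for Hml and -4.14 ± 0.37 for Nplp2, and drpr stood at 0.10 ± 0.10 (adjusted p = 0.46). With no uninduced S2-Twi group, the line itself and the induced factor cannot be told apart.

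Tested against each other, the Grainy head effect differed from the Zelda and Twist effects most for Sr-CI, Nplp2 and He. Between Zelda and Twist none of these genes was called (-0.49 ± 0.59, -0.95 ± 0.45 and -1.61 ± 0.58). For He the adjusted p of edgeR was 0.0573, just above the threshold. The lack of calls does not show that the Zelda and Twist effects are equal in these genes. The Zelda effect lay below the Grainy head effect for 4 members and above it for 1, of 9 tested, where 20.6% of all genes were called lower and 22.0% higher; the difference was -4.41 ± 0.29 for Sr-CI and -4.41 ± 0.46 for Nplp2. The Grainy head effect lay above the Twist effect for 4 members and below it for 1, where 18.5% of all genes were called higher and 21.6% lower (13.8% and 28.3% by library size alone). Between Zelda and Twist 1 member was higher and 1 lower, where 11.1% and 10.0% of all genes were so called (7.63% and 17.4% by library size alone). The fall of Hml was smaller with Zelda by 1.06 ± 0.21, and the effect on drpr differed by -1.19 ± 0.12. For eater, with log2 changes of -1.62, -1.32 and -1.32 against copper-treated wild type, no difference between effects was called, which does not show that the effects are equal. Each effect contains its own wild type control, and those controls differ in these genes as given above. Each effect also contains any difference between line and wild type that was present before induction. Uninduced S2-Grh already stood at -2.09 for Hml, -1.50 for Sr-CI and -1.40 for eater against untreated wild type. For S2-Twi that difference is not known, and its part in the effects was not tested.

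Neighbouring genes were examined for He, NimC1 and Sr-CI. NimC1 and He belong to the Nimrod cluster on 2L, where He ends 210 bases from NimC1, between NimB5 (13970177 to 13972173) and Cyp28a5 (13977302 to 13979569). NimC2, beyond Cyp28a5, had 100 and 85 counts in untreated wild type, 5 and 4 at 40 µM, 4 and 8 at 100 µM, and 47 and 60 at 1000 µM. NimB5, which encodes a secreted Nimrod protein, had 36 and 20, 6 and 7, 1 and 3, and 24 and 39 counts in the same order. Both thus followed the pattern of He and Sr-CI over the doses, and NimC1 between them did not. NimB5 shares exonic bases with He, and how reads there were counted is not given. NimB1, also in the cluster, did not fall at 40 µM. It had 10 and 9 counts in untreated wild type, 8 and 16 at 40 µM, 1 and 1 at 100 µM, and 9 and 8 at 1000 µM. NimB4, another secreted member, had 18 and 14 counts in untreated wild type and at most 1 in any library at 40 or 100 µM, and none in induced S2-Zld. NimC4 (the receptor Simu) was the most abundant relative with 1051 and 1073 counts in untreated wild type. Of the 9 other Nimrod genes, 4 were tested at 100 µM and all 4 fell, where 27.0% of all genes fell, 3 of 6 fell at 40 µM, where 19.7% of all genes fell, and at 1000 µM 0 of 4 were called by edgeR or DESeq2 and 0 had an unadjusted p under 0.05. NimB4, NimB5 and NimC2 had few counts at 40 and 100 µM, and a gene that low is tested only if another group is higher. The counts of Nimrod genes that fell were therefore partly set by the filter and are no result about the family. Sr-CIII, which ends 74 bases before Sr-CI, had 5 and 5 counts in untreated wild type and at most 1 at 40 or 100 µM.

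Secreted and matrix proteins of plasmatocytes (10 genes, all tested) split in wild type cells. At 40 and 100 µM 6 fell and 3 rose, where 19.7% and 27.0% of all genes fell and 20.8% and 25.4% rose. At 1000 µM 1 fell and 2 rose, shares near those over all genes (13.9% and 15.3%). Pxn, which encodes peroxidasin, fell by 3.22 ± 0.65 and 1.93 ± 0.08 at 40 and 100 µM, and Glt (glutactin) by 1.45 ± 0.25 and 1.28 ± 0.07. The replicates of Pxn at 40 µM stood at 453 and 134 CPM, and its call there ended without either untreated library (adjusted p = 0.0632 and 0.0597). The collagen IV genes went the other way: Col4a1 rose by 2.20 ± 0.25 and 1.74 ± 0.13, and vkg by 1.99 ± 0.27 and 1.79 ± 0.11. In induced S2-Zld 6 of the 10 fell and none rose against wild type at 1000 µM (Glt by 1.35 ± 0.10, Col4a1 by 1.09 ± 0.10), a median of -0.42 against 0.02 over all genes. With Grainy head 3 fell and 6 rose against wild type at 100 µM, with a log2 change of -2.13 ± 0.08 for Col4a1 and 1.63 ± 0.08 for Pxn. Against untreated wild type these stood at -0.39 (adjusted p = 0.0685) and -0.31 (0.0022). With Twist vkg rose by 2.26 ± 0.27 and Col4a1 by 2.02 ± 0.25, and Glt and Ppn fell by 1.20 ± 0.25 and 1.02 ± 0.15. The call of Glt ended without either S2-Twi library, and against untreated wild type Ppn stood at -0.11 (adjusted p = 0.562).

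Over all genes, for the counts that follow, 19.1% rose and 17.3% fell with Zelda, 33.6% rose and 27.2% fell with Grainy head, and 6.25% rose and 4.27% fell with Twist, each against copper-treated wild type. In the Draper engulfment pathway, 11 of 12 genes were tested. Of these 3 fell with Zelda against copper-treated wild type, ced-6, the adaptor of Draper, by 0.39 ± 0.07, and the calls of Rac2 (-0.21) and Ced-12 (-0.17) ended without any 1 of the 4 libraries. With Grainy head 2 rose and 5 fell, with ced-6 higher by 0.43 ± 0.06 and the Rac activator gene mbc at -0.59 ± 0.05 (0.03 against untreated wild type), and with Twist 1 rose and 2 fell. The median log2 change of the 11 genes was -0.10 with Zelda, -0.07 with Grainy head and -0.09 with Twist, and the share called with Grainy head was near that over all genes. Of 12 tested receptors and opsonins of other families, 2 rose and 3 fell with Zelda, 6 rose and 3 fell with Grainy head, and 2 rose and 4 fell with Twist, and the Zelda counts were near the shares over all genes. The integrin gene scb, a phagocytic receptor subunit, rose with Zelda by 0.89 ± 0.07, rose with Grainy head as well and fell with Twist by 1.93 ± 0.13, as did Itgbn with Twist (2.43 ± 0.17). Tep1 encodes a complement-like protein. Its log2 change in induced S2-Grh was -6.98 ± 0.21 against wild type at 100 µM and -3.88 against untreated wild type. Wild type at 100 µM stood 3.11 ± 0.12 above untreated wild type in this gene. Scavenger and CD36 relatives rose in 2 of 4 tested cases with Zelda, in 2 of 5 with Grainy head, where 1 fell, and in 1 of 4 with Twist. Among them emp, a CD36 family gene, rose by 1.14 ± 0.27, 2.52 ± 0.19 and 1.53 ± 0.32, but the calls with Zelda and Twist ended without single libraries (adjusted p up to 0.114 and 0.134).

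Of 8 tested transcription factors of blood cells and the growth factor receptor gene Pvr, 1 rose and 4 fell with Zelda (over all genes 19.1% and 17.3%), 1 rose and 4 fell with Grainy head (33.6% and 27.2%), and 1 fell with Twist (4.27%). Pvr, needed for blood cell survival, fell with Zelda by 0.64 ± 0.07 and rose with Grainy head by 0.46 ± 0.06. The Friend-of-GATA gene ush, whose product binds Serpent, fell with Twist by 0.62 ± 0.07. Markers of other cell types are given for comparison. Of lamellocyte markers 2 of 4 tested rose with Zelda (cher and msn), 2 rose and 2 fell of 5 with Grainy head, with atilla at 641 and 408 counts against none in wild type at 100 µM, and 1 of 4 rose with Twist. Crystal cell markers gave 1 higher of 2 tested with Zelda (peb, 3.08 ± 0.17) and 2 lower of 2 with Grainy head. With Twist 0 of 2 were called by edgeR or DESeq2, and 1 had an unadjusted p under 0.05. The summed level of the 4 crystal cell markers was 26.9 to 31.6 CPM in induced S2-Zld and 4.64 to 7.10 in its wild type. Epidermal markers rose in 4 of 4 tested cases with Grainy head and in 1 of 1 with Zelda. With Twist 0 of 2 epidermal markers were called by edgeR or DESeq2, and 0 had an unadjusted p under 0.05. Their summed level was 67.9 to 72.1 CPM in induced S2-Grh against 1.28 to 1.81 in its wild type. Fat body markers rose in 3 of 4 cases with Twist, in 1 of 2 with Zelda and in 1 of 2 with Grainy head, and muscle markers in 1 of 4 with Twist and 1 of 6 with Zelda, while 2 of 7 fell with Grainy head. The 10 fat body markers together summed to 1.71 to 2.08 CPM in wild type at 40 µM. A marker near the floor in wild type is tested only if another group is higher. The counts of epidermal and fat body markers that rose were therefore partly fixed by the filter. The part of these other programs in the changes of the plasmatocyte genes was not tested.

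Over the 9 group means of log2 CPM (prior count 2), Hml was most like Had2 (Pearson's r = 0.949), Nepl19 (0.946), lncRNA:CR45651 (0.944), Vha55 (0.937) and CG42788 (0.937) among 9520 other genes. Sr-CI was the member closest to Hml, with r = 0.865 at rank 54, followed by He (0.657) and Nplp2 (0.616), and crq ran opposite (-0.569). The genes most like srp were Eato (0.939), CG33774 (0.934), cin (0.933), strat (0.927) and Vlet (0.923), while the members closest to srp were Nplp2 (0.654) and eater (0.643). These values describe 9 groups that share library preparation and differ in depth, and genes ranked over so many candidates reach high values easily.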

How the data were processed

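Gene counts of 18 polyA RNA libraries were used, 2 in each of 9 groups taken from the sample titles. Per the labels' protocols a TruSeq v2 kit was used, which leaves strand unmarked. Values are counts: the deposited tables give whole numbers of reads per gene, not normalized, 1 column per library, and a gene length in bases (a value in another unit, per the file headers). Per the submitters' processing notes, HISAT2 2.1.0, featureCounts of Subread 2.0, DESeq2 and the dm6 build were used; which annotation they counted on, whether strand was used and how reads over several genes were treated is not given in the sources used here. Reads without molecular identifiers are not independent molecules, so the limit of 3 counts covers counting error only.

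The 3 tables hold the same 17609 genes and identical untreated wild type columns. Symbols were joined by gene identifier (49 had none), and coordinates come from the Ensembl 115 annotation in dm6 coordinates, whose summed exon length equals the deposited length in 99.9% of matched genes. Tests used edgeR 4.0.16 in R 4.3.3 (filterByExpr, TMM, the quasi-likelihood test with robust dispersions, both sides, p-values adjusted by Benjamini-Hochberg over all genes tested, called at 0.05). Each factor comparison and wild type at 40 µM were fitted on 6 libraries with 3 residual degrees of freedom. The other copper doses, the uninduced lines and the interactions were fitted on the 8 libraries of a table, and differences between factors on all 18. The script was tested on simulated data. CPM use library size alone, whereas log2 changes use TMM. DESeq2 1.42.0, other scaling, no filter, a replicate block, all 18 libraries and leaving out each library were alternatives. The members and the 11 lists of related genes and markers (99 entries, all matched by symbol) were chosen with earlier results of these data known. All members are named. Genes named from a list are among the 4 called genes with the largest changes per comparison, but not all of these are named. Genes of the Nimrod cluster are named beside them and were chosen after their values were seen.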

Additional observations from a re-analysis of the deposited data

Results flagged for a closer look

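Tests of the difference between effects singled out 22 values, each a difference of log2 changes with an adjusted p under 0.05 in edgeR over all genes; groups of 2 are too small for a test of single libraries. In S2-Zld, induction differed from copper in wild type by -2.23 for Sr-CI, -2.03 for Nplp2, -1.54 for Hml, -1.22 for eater and -0.35 for srp. In S2-Grh, the same difference was 3.31 for Sr-CI, 2.35 for Nplp2, 2.14 for He, 1.35 for drpr and -0.35 for crq.

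The effect of Zelda minus that of Grainy head, each against its copper-treated wild type, was -4.41 for Sr-CI, -4.41 for Nplp2, -3.80 for He, -1.16 for drpr and 0.51 for crq. The effect of Zelda minus that of Twist was 1.06 for Hml and -1.19 for drpr. The effect of Grainy head minus that of Twist was 3.92 for Sr-CI, 3.46 for Nplp2, 2.19 for He, 1.09 for Hml and -0.31 for crq. The wild type controls of these effects differ in the same genes, with Sr-CI at 2.35 CPM at 100 µM and 41.5 CPM at 1000 µM. Differences between line and wild type before induction are contained in these effects as well. The part of the controls and of the lines in these differences was not tested.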

How the results depend on the processing

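Over 97 called values of single members, 969 of 1052 values under alternatives kept direction and call, 79 kept direction only and 4 turned. Of 387 values of related genes 355 kept both, 29 kept direction only and 3 turned. With 2 libraries a group, He, NimC1 and Sr-CII rest on few counts, and the cause of no change below was tested.

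Against untreated wild type, log2 changes in induced S2-Grh turned to -2.73 (Sr-CI), -1.54 (He), -0.29 (srp), -0.23 (Nplp2), -0.21 (drpr), -0.31 (Pxn) and 0.03 (mbc); with that control NimC1 turned to 0.50 and Ced-12 to 0.05 in S2-Zld, and crq to 0.66 in S2-Twi. By library size alone crq in S2-Zld turned to -0.02 and srp in S2-Grh to -0.14; srp was also -0.00 with RLE factors, -0.01 with no filter, -0.00 in DESeq2 and -0.04 on all 18 libraries.

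Members called on all 18 libraries were 3 of 5 for S2-Grh against uninduced cells, 2 of 7 at 1000 µM and 3 of 6 for uninduced S2-Zld, and with no filter 4 against 2 for Zelda against Twist. Leaving out 1 library gave 3 to 6 called members for S2-Twi, 2 to 4 at 1000 µM, 3 to 6 for uninduced S2-Zld and 2 to 4 for Zelda against Twist (4 without replicate 1 of wild type at 40 µM). It gave log2 changes of -0.64 to 0.24 for NimC1 and -0.09 to 0.02 for crq on induction of S2-Zld and S2-Grh, -0.04 to 0.09 for srp in S2-Grh against wild type, -0.44 to 0.12 for eater and -0.28 to 0.05 for srp at 40 µM, -0.24 to 0.03 for NimC1 at 100 µM and -0.16 to 0.00 for eater at 1000 µM.

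Genes called in S2-Twi against wild type numbered 937, 1419 with no filter, 1945 on all 18 libraries and 1404 with the replicate block, and 4307 against untreated wild type; those in S2-Zld numbered 3194, and 4975 against untreated wild type; those in uninduced S2-Grh numbered 2080 and 1184 on all 18 libraries. Replicate numbers were not taken to pair samples: same-numbered deviations correlated by -0.25 to 0.41 over 36 pairs of groups (median 0.00, 4 over 0.1). The highest r, 0.41, was that of S2-Twi and its wild type control, where 5 members were called with and without the replicate block. The replicate block ended the calls of srp in S2-Zld against wild type (adjusted p = 0.0631), of srp on induction of S2-Grh (0.0698) and of He at 1000 µM (0.0523).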
